A study of Mus musculus with 6 samples.

Results

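The Myc, Max and Mxd network is a family of transcription factors that share a partner and a DNA motif. Its 10 genes were taken by name: the Myc paralogs Myc, Mycn and Mycl, their partner Max, the antagonists Mxd1, Mxd3, Mxd4 and Mxi1, and the larger Max partners Mnt and Mga. All 10 were found among the 23349 genes of the deposited expression table, 9 under their own symbol and Mycl under its older symbol Mycl1. All 10 also had a mean of at least 1 TPM (transcripts per 1000000), the level above which a gene was tested, as did 12400 genes in all.

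The cells were AtT-20 iPAM, a mouse corticotrope tumour line in which PAM, the enzyme that gives peptide hormones their C-terminal amide, can be induced. Cells of both groups were passaged in DMEM-F12 with 10% serum and with G418 and hygromycin, and RNA came from dense wells. For the 3 induced libraries the cells had 48 h of doxycycline (4 micrograms per ml), and for the 3 basal libraries they had none. Doxycycline and raised PAM therefore cannot be told apart, and the source species of the inducible PAM is not stated. Nothing in the labels says that a group's libraries came from separate cultures, so the p-values cover the spread between libraries alone, and that spread may be technical. The series addresses what changes in corticotrope expression when PAM is raised.

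Myc proteins bind DNA as dimers with Max through a basic helix-loop-helix and leucine zipper, at the E-box CACGTG, and switch on genes for ribosomes, metabolism and cell division. Mxd proteins and Mnt compete for the same partner and sites and bring in the Sin3 and histone deacetylase corepressors. Both the Myc transcript and the Myc protein are short-lived, and Myc is an early responder to growth signals in many cell types.

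Pam, the induced gene, stood at 507, 399 and 258 TPM in induced libraries 1, 2 and 3, and at 92.6, 82.8 and 66.9 TPM in basal libraries 1, 2 and 3, so each induced library was above each basal one. The corticotrope markers Pomc (23484 ± 4987 TPM induced, 26183 ± 4599 TPM basal) and Tbx19 (604 ± 60.8 TPM induced, 578 ± 27.1 TPM basal; SD, n = 3 each) were high in both groups. Of 8 corticotrope markers 7 were tested. None of the 9 markers of other pituitary cell types reached the tested level (0 of 9), 3 of them being at 0 in all libraries, and their summed level was 0.543 to 0.855 TPM in induced and 0.998 to 2.004 TPM in basal libraries. For 13 markers of fibroblasts, endothelium and blood cells, 5 at 0 in all libraries, the sum was 4.64 to 7.47 TPM in induced and 7.11 to 8.24 TPM in basal libraries. Each library had 14491 to 15098 genes above 0. The part of these markers in the results was not tested. The 2 libraries numbered 3 deviated together from their group means (correlation of 0.72) and stood apart from the others. For libraries numbered 1 the correlation was 0.46. Deviations from a mean of 3 libraries sum to 0, so this value is not separate from that of number 3. For number 2 the correlation was 0.18, below that of basal 2 with induced 1 (0.28) and of induced 2 with basal 1 (0.32). For that reason the results are given with and without a block for the library number. In these bulk samples fewer expressing cells and less RNA per cell cannot be told apart. The libraries were made by amplifying chosen stretches of transcripts, so levels are compared within a gene and not between genes. The marker levels and sums above are an exception and only a rough guide. A marker at 0 may be one that was not amplified.

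The 10 genes are scattered over the genome. In mm10 with GENCODE M21 models, Myc lies on chromosome 15, 61985391 to 61990374, plus strand, and Mycl on chromosome 4, 122995652 to 123002485, plus strand. Mycn (12936093 to 12941914) and Max (76937269 to 76962201) both lie on the minus strand of chromosome 12. Mxd1 lies on chromosome 6, 86647042 to 86669161, Mxd3 on chromosome 13, 55325168 to 55329823, and Mxd4 on chromosome 5, 34173883 to 34187720, all on the minus strand. Mxi1 (chromosome 19, 53310518 to 53375810), Mnt (chromosome 11, 74830920 to 74845725) and Mga (chromosome 2, 119897228 to 119969581) lie on the plus strand. Some loci are shared: Mxd3 overlaps Prelid1 on the other strand, Mxd4 the antisense model Gm42846, and Mxi1 the models Gm10197 and AC133451.2. Max and Mxd1 overlap same-strand models to be experimentally tested, Gm47218 and Gm44292. Strand use in counting is not given in the sources used here, so reads of these overlaps may have been assigned to either gene.

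Network proteins bind CACGTG, and some of the network's own promoters carry it. RefSeq promoter windows (GRCm38.p6, 250 bases before to 50 after a gene's start) were matched for 9 of the 10 members. Myc itself had no window there, so its promoter was not searched. The motif, which reads the same on both strands, was present in 3 of those 9, namely Max, Mnt and Mxd4. It was present in 8.09% of 27025 genes with a window and in 11.9% of 9159 tested genes with one. These 3 windows are shown whole, 5′ to 3′ on the gene's strand, because they hold the network's own site, which is in capitals.
Max (chr12:76962199-76962498, minus strand): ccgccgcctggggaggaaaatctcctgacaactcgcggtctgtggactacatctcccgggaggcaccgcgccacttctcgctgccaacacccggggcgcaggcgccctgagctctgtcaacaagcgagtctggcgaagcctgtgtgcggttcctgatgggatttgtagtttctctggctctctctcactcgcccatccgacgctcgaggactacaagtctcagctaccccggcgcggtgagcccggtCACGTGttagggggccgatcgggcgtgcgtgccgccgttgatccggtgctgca
Mnt (chr11:74830674-74830973, plus strand): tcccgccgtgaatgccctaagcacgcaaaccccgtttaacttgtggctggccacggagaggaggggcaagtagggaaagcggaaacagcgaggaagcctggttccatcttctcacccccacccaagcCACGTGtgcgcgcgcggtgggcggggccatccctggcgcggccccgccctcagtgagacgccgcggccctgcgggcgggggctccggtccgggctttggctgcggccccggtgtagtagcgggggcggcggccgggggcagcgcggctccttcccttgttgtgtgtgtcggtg
Mxd4 (chr5:34187661-34187960, minus strand): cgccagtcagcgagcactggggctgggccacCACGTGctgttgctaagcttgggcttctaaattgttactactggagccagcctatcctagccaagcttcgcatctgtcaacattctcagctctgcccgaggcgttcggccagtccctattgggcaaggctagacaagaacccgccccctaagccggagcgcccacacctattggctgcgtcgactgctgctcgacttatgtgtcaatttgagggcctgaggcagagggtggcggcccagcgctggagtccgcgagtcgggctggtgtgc
The first base of the motif lies at -3 from the start in Max, at -123 in Mnt and at -219 in Mxd4. A match is a string of letters, not a measured binding site.

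Myc was the 1 member that passed the test, and it fell. Its level was 2.34, 4.15 and 2.52 TPM in induced libraries 1, 2 and 3, and 14.6, 17.5 and 13.8 TPM in basal libraries 1, 2 and 3. Every induced library lay far below every basal one, with no overlap. The means were 3.005 ± 0.992 TPM in induced and 15.3 ± 1.94 TPM in basal cells (SD, n = 3 each), which is 5.09-fold lower, or 80.3% lower, in induced cells. On the log2(TPM + 1) scale, which understates the change of a gene at these levels, Myc fell by 2.04 (SE 0.21, 95% confidence interval -2.55 to -1.54; limma adjusted p = 0.0173). It ranked 10 from the lowest of the 12400 tested genes. For Myc a two-sided exact permutation test over the 6 libraries gave p = 0.1, below which no comparison of 3 with 3 can go. Mycl, Mxd1 and Mnt gave the same p in that test, and the other members 0.2 (Mxd3) to 0.9 (Mga). The limma call ended without basal 1 (adjusted p = 0.101), basal 2 (0.158), basal 3 (0.0641), induced 1 (0.0889) or induced 2 (0.0760) and held without induced 3 (0.0136), with log2 differences from -2.24 to -1.93. Without both libraries numbered 3 it was -2.03 (limma adjusted p = 0.00219), and Myc was then also the 1 member called lower, against 4.04% of tested genes, with 0 members higher, against 1.51%.

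**Figure D1:**
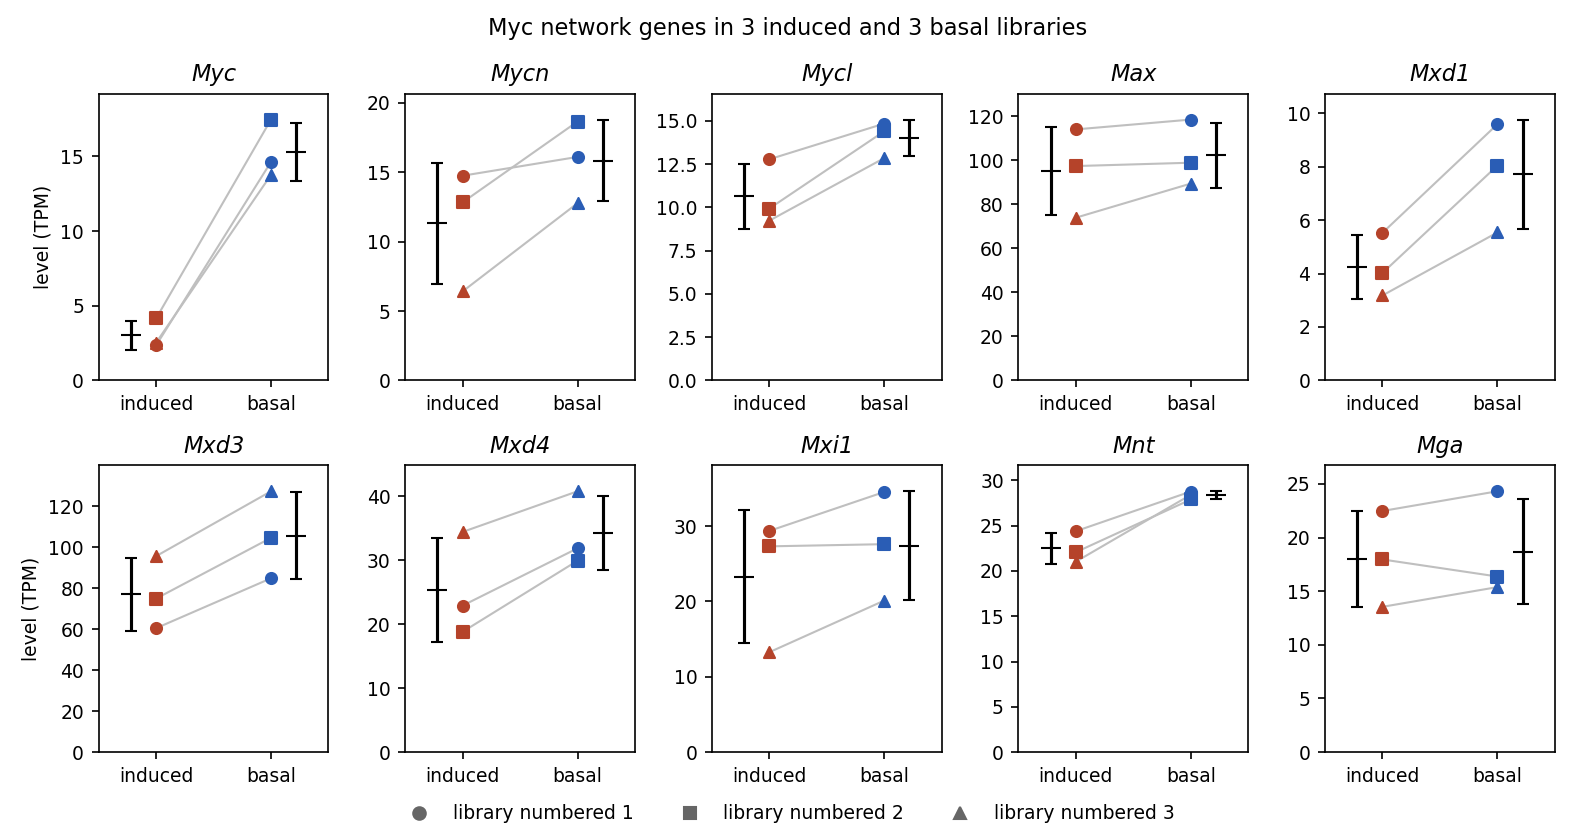
Level of each network gene in TPM (y axis, from 0, with its own scale per gene) in the induced libraries and, to their right, the basal libraries, with group means and SD bars and grey lines between libraries of the same number. Myc sits at 2.34 to 4.15 TPM in induced and 13.8 to 17.5 TPM in basal libraries. The levels of Mycn, Max, Mxd3, Mxd4, Mxi1 and Mga overlap between groups.

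The other Myc paralogs did not pass the test without the block. Mycn, known for its part in neural development and neuroblastoma, stood at 14.8, 12.8 and 6.42 TPM in induced libraries 1, 2 and 3, and at 16.1, 18.7 and 12.8 TPM in basal libraries 1, 2 and 3. Induced 3 was the lowest of the 6 libraries, and the groups overlapped. The log2 difference was -0.51 (SE 0.31), with a limma adjusted p of 0.526, or 0.0393 with the block. Mycl, first found amplified in lung cancer, stood at 12.8, 9.93 and 9.23 TPM in induced libraries and at 14.8, 14.4 and 12.9 TPM in basal libraries 1, 2 and 3. Its groups did not overlap, although induced 1 and basal 3 were nearly equal. Its log2 difference was -0.38 (SE 0.17), with a limma adjusted p of 0.363, or 0.0445 with the block. Both paralogs thus had lower means in induced than in basal cells, as Myc did.

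Max, the shared dimer partner of the network, had a difference smaller than its spread. It stood at 114, 97.4 and 74.0 TPM in induced libraries 1, 2 and 3, and at 119, 98.9 and 89.5 TPM in basal libraries 1, 2 and 3. The groups overlapped, and in each group the library numbered 1 was the highest and that numbered 3 the lowest. The means were 95.2 ± 20.2 TPM in induced and 102 ± 14.8 TPM in basal cells (SD, n = 3 each). The log2 difference was -0.12, and its 95% interval of -0.58 to 0.35 leaves room for a change in either direction (limma adjusted p of 0.881, or 0.393 with the block).

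Among the antagonists, Mxd1 had the largest difference. Mxd1, which replaces Myc on Max when many cell types differentiate, stood at 5.52, 4.02 and 3.18 TPM in induced libraries 1, 2 and 3, and at 9.59, 8.04 and 5.54 TPM in basal libraries 1, 2 and 3. The groups met without overlapping, since induced 1 and basal 3 were almost equal, but within each number the induced library was clearly lower. The means were 4.24 ± 1.19 TPM in induced and 7.72 ± 2.04 TPM in basal cells (SD, n = 3 each), 1.82-fold lower. The log2 difference was -0.73 (SE 0.25), with a limma adjusted p of 0.227, or 0.0052 with the block.

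Mxd3, a member linked to proliferating cells, stood at 60.4, 74.9 and 95.6 TPM in induced libraries 1, 2 and 3, and at 84.8, 105 and 127 TPM in basal libraries 1, 2 and 3. Libraries numbered 3 were the highest of their group and the groups overlapped, with a lower induced value at each number. Its log2 difference was -0.46 (SE 0.22; limma adjusted p of 0.406, or 0.0063 with the block). Prelid1, which shares its locus with Mxd3, averaged 714 ± 21.4 TPM in induced and 728 ± 53.1 TPM in basal cells (SD, n = 3 each; limma adjusted p = 0.961). Mxd4 stood at 22.9, 18.8 and 34.4 TPM in induced libraries and at 31.9, 29.9 and 40.8 TPM in basal libraries 1, 2 and 3. Here too the libraries numbered 3 were the highest, and induced 3 exceeded basal 1 and basal 2. The log2 difference of Mxd4 was -0.45 (SE 0.24; limma adjusted p of 0.475, or 0.0196 with the block).

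Mxi1, also called Mxd2, stood at 29.4, 27.3 and 13.3 TPM in induced libraries 1, 2 and 3, and at 34.5, 27.6 and 20.1 TPM in basal libraries 1, 2 and 3. In contrast to Mxd3 and Mxd4, its libraries numbered 3 were the lowest of each group, and the groups overlapped widely. The log2 difference was -0.27 (SE 0.33; limma adjusted p of 0.805, or 0.144 with the block).

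Mnt, the most widely expressed of the Max-binding repressors, varied little within a group. It stood at 24.4, 22.1 and 21.03 TPM in induced libraries 1, 2 and 3, and at 28.8, 27.9 and 28.4 TPM in basal libraries 1, 2 and 3. All induced libraries lay below all basal ones. The means were 22.5 ± 1.72 TPM in induced and 28.4 ± 0.442 TPM in basal cells (SD, n = 3 each), with a log2 difference of -0.32 (SE 0.13; limma adjusted p of 0.309, or 0.0450 with the block). Mga, a Max partner that also carries a T-box and acts in a polycomb complex, stood at 22.5, 17.96 and 13.5 TPM in induced libraries and at 24.3, 16.4 and 15.4 TPM in basal libraries 1, 2 and 3. Its groups overlapped, and induced 2 was above basal 2. The log2 difference was -0.05 (SE 0.25; limma adjusted p of 0.961, or 0.769 with the block).

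Seen together, all 10 members had a negative log2 difference, as did 55.1% of all tested genes. The median was -0.41 over the members and -0.04 over all tested genes. By limma 1 of 10 members was lower past the threshold (adjusted p under 0.05), against 1.06% of tested genes, and 0 were higher, against 0.129%. At an unadjusted p under 0.05, 3 members (Myc, Mxd1 and Mnt) were lower, against 9.56% of tested genes, and 0 higher, against 5.53%. These shares over all tested genes are the background for the counts of each list below. Members and lists were chosen with earlier results of these data known, so a count above its share is no test of enrichment. With the block 7 of 10 were lower, against 14.0% of tested genes, and 0 were higher, against 8.23%. Those 7 were Myc, Mycn, Mycl, Mxd1, Mxd3, Mxd4 and Mnt. The groups did not overlap, induced lower, for 4 members (Myc, Mycl, Mxd1 and Mnt), against 12.6% of tested genes. In all 3 pairs of libraries with the same number the induced value was lower for 9 members, all but Mga, against 32.6% of tested genes.

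**Figure D2:**
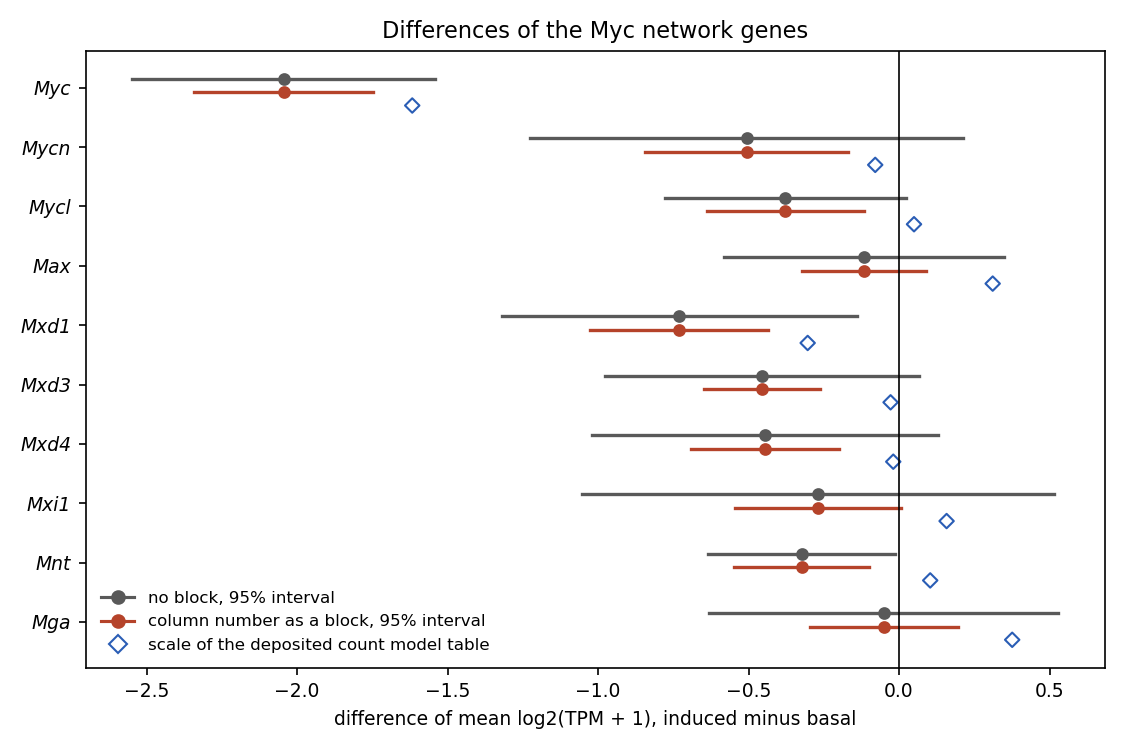
Log2 difference of each network gene, induced minus basal, on the log2(TPM + 1) scale. Bars are 95% confidence intervals from limma without and with the number of the library as a block. Open diamonds show the same difference moved by the constant offset of the authors' deposited count model table (DESeq2). Myc stands apart at -2.04, and the other members lie between -0.73 and -0.05.

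The smaller differences depended on which scale of the libraries was used. After median ratio rescaling all 10 members stayed negative, with a median of all tested genes of -0.0015. After quantile normalization 9 did, all but Mga (0.015), with a median of all tested genes of 0.020. With the block and median ratio rescaling limma called 5 members lower and 0 higher, where 1541 of the 12400 tested genes were lower and 1282 higher. A larger move came from a deposited table. In the authors' deposited table from DESeq2 the log2 fold changes lie a median of 0.43 above those computed here, over 195 shared genes. That table holds only genes past a p threshold of 0.05, so the offset comes from selected genes. Its size over all genes is not known. Moving the induced libraries by that amount puts the median of all tested genes at 0.39. Values moved in this way are said to be on the DESeq2 scale. On that DESeq2 scale, which adds the same amount to every gene and is not an estimate by DESeq2, Myc was at -1.62 (limma adjusted p = 0.0170). The authors' DESeq2 table itself lists Myc at -2.03, near the -2.04 computed here without the move. Of the others, 5 (Mycl, Max, Mxi1, Mnt and Mga) had differences above 0, with the lowest at 0.050 (Mycl) and the highest at 0.38 (Mga), and the median over the 10 members was 0.015. With the block as well, limma called 2 members higher, Max (adjusted p = 0.0152) and Mga (adjusted p = 0.0142), and 1 lower, Myc, where 61.8% of all tested genes were higher and 3.78% lower. Relative to the median of all tested genes, which makes the scales alike, Myc was at -2.01, Mxd1 at -0.69, Max at -0.08 and Mga at -0.01.

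Ratios within a library do not carry the scale of that library, apart from the added 1. The log2 ratio of Myc to Max was -5.10, -4.26 and -4.41 in induced libraries 1, 2 and 3, and -2.94, -2.44 and -2.62 in basal libraries 1, 2 and 3. Every induced library had the lower ratio, with a difference of -1.93 between the group means. The log2 ratio of Myc to Mxd1 was -0.96, 0.04 and -0.25 in induced libraries and 0.56, 1.03 and 1.18 in basal libraries 1, 2 and 3. This was the smallest shift, -1.31, since Mxd1 was lower as well. Against the other members the shift lay between those of Mycn (-1.54) and Mga (-1.99), and the groups overlapped for 0 of the 9 ratios. All 9 ratios use the same Myc values, so they are not 9 separate results, and they received no test.

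**Figure D3:**
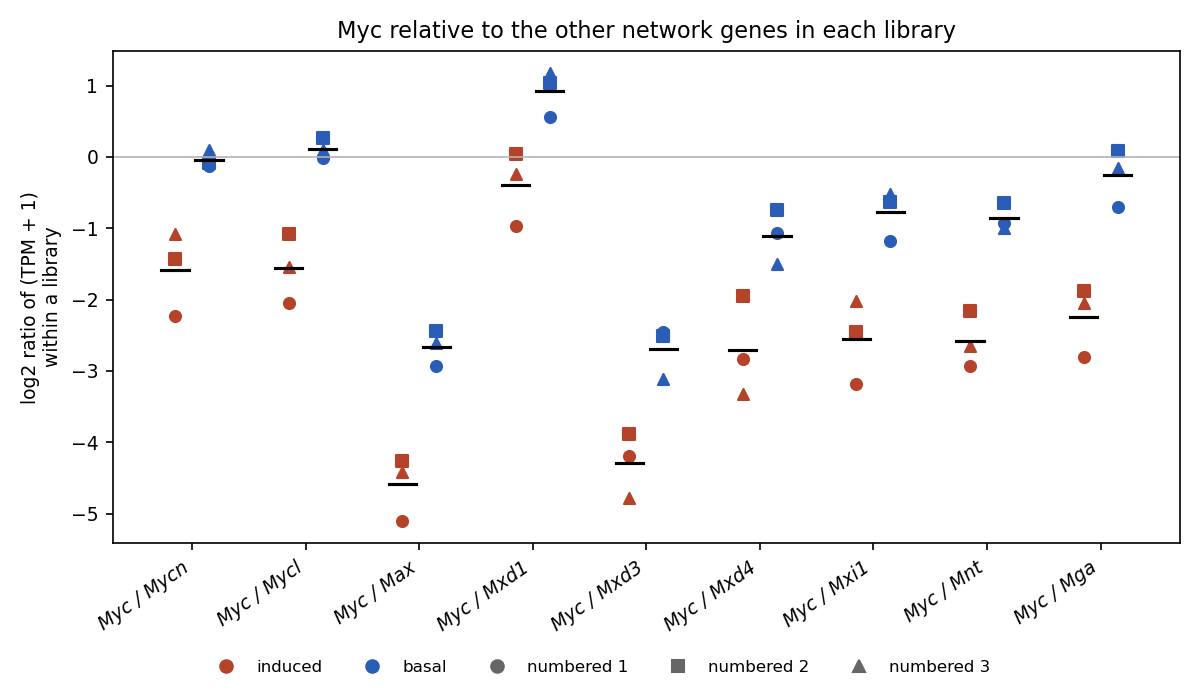
Log2 ratio of (TPM + 1) of Myc to each other network gene within a library (y axis), with the induced libraries left of the basal libraries and black bars at the group means. The gap between groups at its smallest is 0.44, and only shifts between groups can be read, not the height of a ratio.

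Other factors that bind E-boxes, the Mlx branch of the extended network included, gave 1 call. Bhlhe40, a circadian repressor that binds CACGTG, fell to 90.3 ± 23.7 TPM in induced cells, against 247 ± 37.7 TPM in basal cells (SD, n = 3 each; log2 difference -1.47, limma adjusted p = 0.0447). Leaving out any 1 library but induced 3 ended that call as well (limma adjusted p up to 0.251). Of 14 tested genes, 11 were negative and the median was -0.18, or 0.25 on the DESeq2 scale. With the block Arntl and Bhlhe41, named after their values were seen, were also lower, which makes 3 of 14, against 14.0% of tested genes. Mlx, which pairs with the glucose-sensing Mondo proteins, averaged 40.5 ± 2.15 TPM in induced and 36.3 ± 4.22 TPM in basal cells, and Usf2 82.0 ± 12.6 TPM in induced and 69.6 ± 9.55 TPM in basal cells (SD, n = 3 each).

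The corepressors that Mxd and Mnt bring to DNA showed 0 calls by limma over 17 tested genes, with 1 at an unadjusted p under 0.05, and a median of -0.09 (0.34 on the DESeq2 scale). With the block the deacetylases Hdac1 and Hdac2 were higher and the Sin3 subunits Sap30 and Arid4a (named after its value was seen) were lower. These 2 of 17 in each direction are near the 8.23% higher and 14.0% lower of all tested genes. Hdac2 averaged 225 ± 31.9 TPM in induced and 175 ± 13.7 TPM in basal cells, and Sin3a, the scaffold of the complex, 20.9 ± 0.945 TPM in induced and 25.97 ± 2.52 TPM in basal cells (SD, n = 3 each). Of the 13 Mga partners in the polycomb complex PRC1.6, 0 passed in limma, also at an unadjusted p under 0.05, and with the block Yaf2, named after its value was seen, was lower. Their median was -0.10, or 0.33 on the DESeq2 scale. E2f6, the factor that targets that complex to cell cycle genes, averaged 51.1 ± 3.64 TPM in induced and 58.2 ± 4.63 TPM in basal cells, and L3mbtl2 46.8 ± 9.94 TPM in induced and 37.8 ± 5.54 TPM in basal cells (SD, n = 3 each).

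Of 19 Myc cofactors 10 were positive, with a median of 0.05, and limma called 0, with 1 at an unadjusted p under 0.05. Ccnt1, the cyclin of the elongation kinase P-TEFb, averaged 11.2 ± 1.99 TPM in induced and 17.2 ± 2.65 TPM in basal cells (SD, n = 3 each; limma adjusted p of 0.213, or 0.0089 with the block). The paired helicases Ruvbl1 and Ruvbl2 differed in sign. Ruvbl1 averaged 90.0 ± 25.0 TPM in induced and 61.9 ± 9.69 TPM in basal cells, and Ruvbl2 324 ± 59.2 TPM in induced and 412 ± 95.6 TPM in basal cells (SD, n = 3 each). Their adjusted p in limma with the block was 0.0070 for Ruvbl1 and 0.0204 for Ruvbl2.

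Genes that control the stability of the Myc protein included 6 of 21 lower with the block, against 14.0% of tested genes, and 1 higher, against 8.23%. Without the block limma called 0, with 3 lower (9.56% of tested genes) and 1 higher (5.53%) at an unadjusted p under 0.05. Fbxw7, the ubiquitin ligase subunit that marks phosphorylated Myc for destruction, averaged 24.5 ± 1.96 TPM in induced and 37.8 ± 1.46 TPM in basal cells, with no overlap (SD, n = 3 each; limma adjusted p of 0.0885, or 0.0029 with the block). Fbxo32, another ligase subunit, averaged 14.96 ± 2.57 TPM in induced and 30.9 ± 10.9 TPM in basal cells, and the kinase Plk1, which opposes Fbxw7, 79.3 ± 5.46 TPM in induced and 62.2 ± 1.77 TPM in basal cells (SD, n = 3 each). Of 17 regulators of the Myc gene and transcript limma called 0, with 4 lower (9.56% of tested genes) and 0 higher (5.53%) at an unadjusted p under 0.05, and with the block 5 were lower (14.0% of tested genes). Zfp36, which binds AU-rich elements and speeds the decay of early response transcripts, averaged 20.8 ± 6.44 TPM in induced and 43.4 ± 11.5 TPM in basal cells, and Smad3, a mediator of repression of Myc by TGF-beta, 9.38 ± 1.01 TPM in induced and 13.3 ± 0.399 TPM in basal cells (SD, n = 3 each). The Myc protein itself was not measured here.

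Genes that Myc is known to induce had differences on both sides of 0. Of 94 such genes 92 were tested, 56 with positive and 36 with negative log2 differences and a median of 0.07, against -0.04 over all tested genes. Limma called 0 of them, while 11 were higher (5.53% of tested genes) and 6 lower (9.56%) at an unadjusted p under 0.05. With the block 18 were higher (8.23% of all tested genes were) and 11 lower (14.0% of all tested genes were). The medians of the sub-lists had different signs on the TPM scale, but on the DESeq2 scale all 4 were positive, at 0.60 for ribosome biogenesis, 0.59 for translation, mitochondria and chromatin, 0.37 for metabolism and 0.24 for the cell cycle, where the median of all tested genes was 0.39.

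In ribosome biogenesis 25 of 31 genes were positive and 6 negative, where 55.1% of tested genes were negative, and the median was 0.17. With the block 8 were higher (8.23% of tested genes) and 1 lower (14.0%). Polr1b, a subunit of RNA polymerase I, averaged 23.1 ± 1.36 TPM in induced and 16.4 ± 1.65 TPM in basal cells, and Ubtf, which recruits that polymerase, 66.9 ± 2.13 TPM in induced and 51.0 ± 3.66 TPM in basal cells (SD, n = 3 each). Neither overlapped between groups (limma adjusted p of 0.183 for Polr1b and 0.202 for Ubtf, which the block brings to 0.0155 and 0.0156). The nucleolar Gnl3 and the ribosome assembly factor Nip7 lay the other way, Nip7 at 42.6 ± 20.1 TPM in induced and 74.3 ± 19.0 TPM in basal cells (SD, n = 3 each). In the list of translation, mitochondrial and chromatin targets 15 of 19 were positive and 4 negative, with a median of 0.16. With the block 6 were higher (8.23% of tested genes) and 0 lower (14.0%). Nme1, a nucleoside diphosphate kinase, averaged 503 ± 87.2 TPM in induced and 344 ± 30.2 TPM in basal cells, and Hspe1, the mitochondrial co-chaperone, 1027 ± 52.0 TPM in induced and 748 ± 6.64 TPM in basal cells (SD, n = 3 each). The limma adjusted p was 0.187 for Nme1 and 0.104 for Hspe1, which the block brings to 0.0033 and 0.0037.

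Of the cell cycle targets 12 of 16 were negative, against 55.1% of tested genes, with a median of -0.18 that turned to 0.24 on the DESeq2 scale. With the block 5 were lower (14.0% of tested genes) and 0 higher (8.23%). Ccne1, the cyclin that starts S phase, averaged 166 ± 14.8 TPM in induced and 227 ± 22.3 TPM in basal cells, and Mcm7, of the replicative helicase, 234 ± 17.6 TPM in induced and 317 ± 17.7 TPM in basal cells (SD, n = 3 each). Cdk4 averaged 398 ± 28.9 TPM in induced and 335 ± 24.3 TPM in basal cells (SD, n = 3 each). Metabolic targets were split, 12 positive and 14 negative over 26 genes. With the block 4 were higher (8.23% of tested genes) and 5 lower (14.0%). The glucose transporter Slc2a1 (181 ± 38.1 TPM induced, 330 ± 31.0 TPM basal) and the hexokinase Hk2 (154 ± 32.8 TPM induced, 265 ± 28.5 TPM basal) had lower means in induced cells, and the folate carrier Slc19a1 (48.6 ± 7.06 TPM induced, 33.6 ± 5.23 TPM basal) and the purine enzyme Gart (196 ± 10.95 TPM induced, 152 ± 7.82 TPM basal; SD, n = 3 each) had higher ones.

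Of the genes that Myc is known to repress, 3 fell and 0 rose. Of 21 such genes 13 were tested, 12 of them negative, with a median of -0.71, or -0.28 on the DESeq2 scale given above. The limma calls were Txnip, Btg2 and Ndrg1 (1.06% of all tested genes were called lower), with 7 lower (9.56% of tested genes) and 0 higher (5.53%) at an unadjusted p under 0.05. Txnip, an inhibitor of thioredoxin and glucose uptake, fell to 246 ± 21.4 TPM in induced cells, against 638 ± 61.0 TPM in basal cells (SD, n = 3 each; log2 difference -1.37, limma adjusted p = 0.0135). Btg2, an antiproliferative p53 target, fell to 153 ± 40.4 TPM in induced cells, against 403 ± 71.6 TPM in basal cells (SD, n = 3 each; log2 difference -1.41, limma adjusted p = 0.0496). The differentiation gene Ndrg1 fell to 476 ± 42.1 TPM in induced cells, against 822 ± 70.4 TPM in basal cells (SD, n = 3 each; log2 difference -0.79, limma adjusted p = 0.0455). For each of these 3, leaving out any 1 library but induced 3 ended the call, with limma adjusted p up to 0.265. With the block 10 were lower (14.0% of tested genes) and 1, Bin1, higher (8.23%). This list too was chosen with earlier results of these data known, so its counts beside these shares are no independent support. The genes of this list also answer to other signals, and what moved them was not tested.

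**Figure D4:**
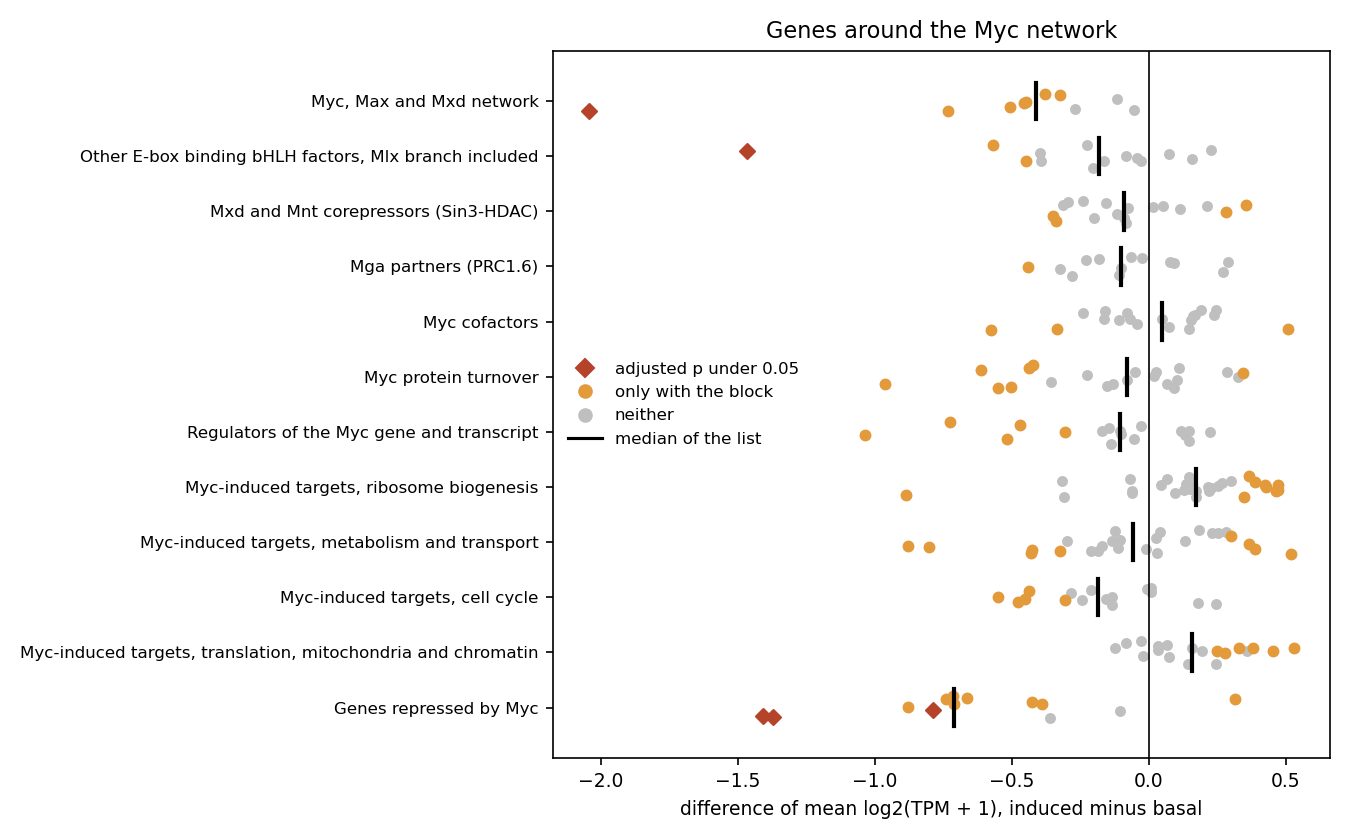
Log2 difference, induced minus basal, of each tested gene of the network and of the lists around it (x axis), one row per list, with a black bar at the list's median. Genes repressed by Myc have the lowest median, -0.71, and the ribosome biogenesis targets the highest, 0.17.

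The E-box was also looked for in the promoters of target genes. Of 81 induced targets with a promoter window 20 held CACGTG (24.7%), among them 10 of 19 in the translation, mitochondrial and chromatin list, and 0 of 14 genes repressed by Myc held it. The 20 targets with the motif had 16 positive differences and a median of 0.17, and the 61 without it 34 positive and a median of 0.04. Ribosome biogenesis held 6 of the 20, and this list and the translation list had 25 of 31 and 15 of 19 tested genes positive. Metabolism held 3 and the cell cycle 1, with 12 of 26 and 4 of 16 tested genes positive. Motif and sub-list were thus not separated, and the part of the motif was not tested. With the block 5 of the 20 were higher and 0 lower, and 9 of the 61 were higher and 10 lower. Over all tested genes with a window, 9.80% of those with the motif were higher with the block and 12.6% lower, and of those without it 7.82% were higher and 14.3% lower. The positive share was 44.0% with the motif and 44.6% without it. The 5 targets with the motif that were higher with the block are shown, chosen after their values were seen, to print the site in its setting. None of the 5 passed in limma without the block (0 of 5). The motif is in capitals, and each stretch ends 47 bases from it or at the edge of the window.
Nme1, first window (chr11:93968238-93968337, minus strand): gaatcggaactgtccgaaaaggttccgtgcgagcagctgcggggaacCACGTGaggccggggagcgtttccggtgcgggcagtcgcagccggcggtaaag
Nme1, second window (chr11:93968002-93968101, minus strand): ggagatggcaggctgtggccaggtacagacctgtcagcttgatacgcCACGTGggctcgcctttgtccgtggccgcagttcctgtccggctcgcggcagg
Phb (chr11:95666707-95666777, plus strand): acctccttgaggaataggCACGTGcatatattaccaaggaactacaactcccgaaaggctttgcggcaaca
Hspd1 (chr1:55088271-55088370, minus strand): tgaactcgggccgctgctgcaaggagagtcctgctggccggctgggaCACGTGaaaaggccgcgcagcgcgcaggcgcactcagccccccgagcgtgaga
Prmt1 (chr7:44986549-44986648, minus strand): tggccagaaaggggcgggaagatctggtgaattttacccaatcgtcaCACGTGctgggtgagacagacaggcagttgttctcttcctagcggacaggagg
Grwd1 (chr7:45830740-45830802, minus strand): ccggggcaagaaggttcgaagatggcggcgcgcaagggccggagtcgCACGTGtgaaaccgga
Hspd1 is the mitochondrial chaperonin that works with Hspe1, Phb a prohibitin of the inner mitochondrial membrane, Prmt1 an arginine methyltransferase and Grwd1 a ribosome biogenesis factor.

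The genes whose pattern over the 6 libraries lay nearest to that of Myc were found by the root mean square distance between centred log2(TPM + 1) values. The 8 nearest named genes were Pglyrp1, Hist1h2bg, Rgcc, Ppp1r3c, Cck, Fos, Sprr1a and Kcnab2, at distances of 0.144 to 0.261. The median distance was 1.06 over 12390 genes. Gene models without a proper name count in that median but were not eligible for the 8. Pglyrp1 stood at 4.08, 6.45 and 3.61 TPM in induced libraries 1, 2 and 3, and at 21.9, 19.9 and 20.3 TPM in basal libraries 1, 2 and 3. Like Myc it was highest in induced 2 among the induced libraries. Among the basal libraries Pglyrp1 was lowest in basal 2, where Myc was highest. Kcnab2, a potassium channel subunit, stood at 1.59, 2.47 and 2.09 TPM in induced libraries and at 8.89, 8.07 and 8.38 TPM in basal libraries 1, 2 and 3. Reads of near-identical histone copies make Hist1h2bg uncertain. A gene near Myc had to share its large difference between groups, so the calls of these genes are no separate result.

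**Figure D5:**
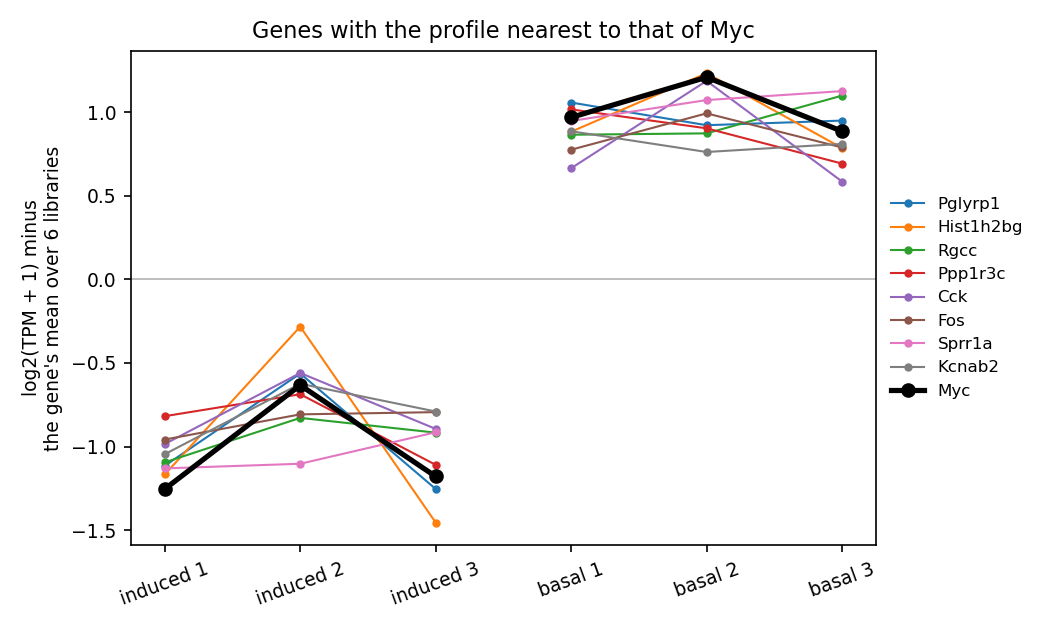
Log2(TPM + 1) of Myc and of the 8 named genes nearest to it, each centred on its own mean (y axis), in the 3 induced and then the 3 basal libraries (x axis). All 9 lines lie below 0 in the induced and above 0 in the basal libraries.

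The authors' deposited tables hold 2 of the 10 members. In the authors' deposited table from Cuffdiff Myc had an FPKM of 1.57 in induced and 7.71 in basal cells, with a log2 fold change of -2.30 and q = 0.000414. Mxd1 had an FPKM of 2.18 in induced and 3.90 in basal cells in the authors' deposited table from Cuffdiff, with a log2 fold change of -0.84 and q = 0.000414. Mxd1 was thus listed there, while it passed here with the block and not without it. The authors' deposited table from DESeq2 lists Myc at -2.03 (adjusted p = 0.0445), and the authors' deposited table from limma lists it at -2.05 (adjusted p = 0.0114). Myc is also the 1 member on the authors' deposited core list of 57 symbols.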

How the data were processed

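Expression was measured in 3 induced and 3 basal amplicon libraries of AtT-20 iPAM cells. Per the labels' protocols RNA was extracted in Trizol, libraries were made with an AmpliSeq kit and run in a single lane, and 16.6 M reads per library are stated. The authors' tools, per the submitters' processing notes, were the aligners TopHat2 2.0.9 and Bowtie2 2.1.0.0, and for expression limma, DESeq2, Cuffdiff 2.2.0 and Cufflinks 2.2.0, with mm10. The sources used here do not give their settings or annotation. The deposited expression sheet is named for FPKM, but each library sums to 1000000, so its values are TPM; they keep no depth of their own, so the stated reads could not be checked and no count model was used. Per the file headers, the authors' Cuffdiff table holds group FPKM and q-values, their DESeq2 table adjusted p-values, their limma table p-values and a B score, and all of them a log2 fold change. In the authors' limma table the sign of the log2 fold change is opposite to that of its interval. Columns could be tied to a group but not to a sample, since they carry numbers where the labels carry letters. The sheet holds 23349 rows, 6551 of them at 0 in all libraries, and 27 names had become date numbers.

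After adding 1 TPM and taking log2, the 12400 genes whose mean reached 1 TPM were tested with limma 3.58.1 (R 4.3.3, eBayes with a trend), with Benjamini-Hochberg adjustment over all tested genes and a threshold of 0.05. The code was tested on simulated data with less spread than the real libraries and no deviation shared by number. That checks the code and not the calls. Fold values are ratios of mean TPM. Libraries with the same column number deviated together (correlations of 0.46, 0.18 and 0.72 for numbers 1, 2 and 3), although basal 2 correlated more with induced 1 (0.28) and induced 2 with basal 1 (0.32), and those numbered 3 ran against the others across groups (-0.61 to -0.33). Deviations within a group sum to 0, so these correlations are not separate results. The labels do not tie the numbers to an origin. The block fit uses these numbers as pairs. The named genes are the 10 members, the 8 genes nearest to Myc (gene models without a proper name left out) and genes of each list. In each list these are every gene past the threshold, up to 4 in a direction, or else the 2 with the smallest p in that direction. Not all of those are described, and genes outside the rule are said to be. The members and the gene lists were chosen with earlier results of these data known. Promoter windows came from RefSeq (GRCm38.p6). Alternatives were other pseudocounts, filters, normalizations, moderation and weights, the block, and leaving out libraries. Leaving out both libraries numbered 3, and the block with another scale, were chosen after seeing the data.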

Additional observations from a re-analysis of the deposited data

How the results depend on the processing

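Myc kept its sign under all 20 alternatives (log2 differences of -2.38 to -1.62) and was past the limma threshold in all but the 5 that left out basal 1, basal 2, basal 3, induced 1 or induced 2. The cause of the changes below was not tested. Against 148 genes called in limma (16 higher, 132 lower), a filter at 5 TPM gave 93 (8 and 85), a pseudocount of 0.1 gave 10 higher, quantile normalization 28 higher and 93 lower, median ratio rescaling 15 higher and 91 lower, library weights 3500 (1341 and 2159; the weights stopped before full convergence), the replicate block 2761 (1021 and 1740), the DESeq2 table's scale 2476 (2352 and 124), both libraries numbered 3 left out 688 (187 and 501), the block with the DESeq2 table's scale 8127 (7658 and 469) and the block with median ratio rescaling 2823 (1282 and 1541). Leaving out 1 library gave 0 to 255 genes, 0 to 33 higher and 0 to 222 lower. It gave 0 without basal 1, without basal 2 and without induced 1, where limma had 1400, 1130 and 1562 genes at an unadjusted p under 0.05. Members that passed with library weights, with the replicate block and with the block after median ratio rescaling were Mycn (-0.45, -0.51 and -0.47), Mxd1 (-0.80, -0.73 and -0.70), Mxd3 (-0.49, -0.46 and -0.42) and Mxd4 (-0.63, -0.45 and -0.41); Mycl (-0.45 and -0.38) and Mnt (-0.32 and -0.32) passed with the weights and the block alone. On the DESeq2 table's scale, with or without the block, the sign turned for Mycl (0.050), Max (0.31), Mxi1 (0.16), Mnt (0.10) and Mga (0.38), and for Sin3a (0.13), Sap30 (0.090), E2f6 (0.24), Tfdp2 (0.20), Ruvbl2 (0.093), Gnl3 (0.11), Ptma (0.30) and Pa2g4 (0.34). Mga also turned with quantile normalization (0.015), library weights (0.10) and both libraries numbered 3 left out (0.0089). Library weights turned E2f2 (-0.0018), Ptma (0.0087) and Pa2g4 (0.050), and leaving out both libraries numbered 3 turned Ptma (0.047) and Pa2g4 (0.016). Leaving out 1 library gave log2 differences of -2.24 to -1.93 for Myc, -0.26 to 0.053 for Max, -0.47 to 0.078 for Mxi1, -0.22 to 0.14 for Mga, -0.21 to 0.033 for Ptma and -0.19 to 0.091 for Pa2g4. No sign of another member turned when 1 library was left out. The shifts of the 9 ratios of Myc to other members, given the SD pooled over both groups (0.30 for Mnt to 0.56 for Mxd4), moved by less than that SD with a pseudocount of 0.1 (by 0.18 to 0.30) and without any 1 library; the ratios to Mycn, Mycl, Max and Mnt moved with that pseudocount by more than the SD of the basal libraries alone. The values carry no depth beyond the stated reads, each group has 3 libraries, and changes of the size seen for most members could not be told from the spread without the block.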
